A study of Mus musculus with 6 samples.

Results

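The genes described here are 10 genes that mark fat cells in the mouse: Adipoq, Lep, Retn, Cfd, Plin1, Plin4, Cidec, Fabp4, Lpl and Pparg. They were selected by symbol from a table of 55487 genes, with their levels in these same tumors already known, so the difference between the groups in these 10 genes is given as a description and carries no test. All 10 passed the filter on low counts and belong to the 15114 genes tested.

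RNA was sequenced from 6 subcutaneous tumors, 3 of a control group and 3 of an IFN-γ group. The tumors grew from CT26.WT, a colon carcinoma line derived from BALB/c mice, injected under the skin of the back of 4-week-old male BALB/c mice, and the labels give the genotype of both groups as WT. Mice of the IFN-γ group received interferon-γ repeatedly through the tail vein, and control mice received PBS by the same route. The labels do not say that each tumor came from a different mouse, so the spread between tumors may be partly technical.

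White adipocytes store triglyceride in a single large droplet coated with perilipins, take up fatty acids released from lipoproteins by lipoprotein lipase, and secrete hormones such as adiponectin and leptin. Their formation is driven by the nuclear receptor PPARγ together with transcription factors of the C/EBP family. The skin of the mouse lies on a layer of fat, and tumors placed under it grow beside that layer.

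Several of the 10 genes are known targets of the C/EBP family, so the stretch of 250 bases before each RefSeq start site (GRCm38.p6) was searched on both strands for the C/EBP motif TTGCNNAA. Windows were matched for 8 of the 10 genes, all but Fabp4 and Lpl, with 11 windows in all because some genes have several starts. The motif was in 4 of these 11 windows, those of Lep, Cidec, Plin1 and 1 start of Pparg, and in 9.56% of the 32851 windows of all genes. The matches are printed because they are sequences that members of the group have in common. Each line gives 30 bases on the strand of the gene, 5′ to 3′, with the match in capitals.
Lep, chr6:29060155-29060184, plus strand, 55 bases before the start: tggccggacagTTGCGCAAgtggcactggg
Cidec, chr6:113434944-113434973, minus strand, 198 bases before the start: ggagggctctaTTGCTCAAgggcccatggg
Plin1, chr7:79732945-79732974, minus strand, 187 bases before the start: ccacctctttaTTGCCTAAacatcccccat
Plin1, chr7:79732816-79732845, minus strand, 58 bases before the start: tctgagaggcaTTGCCCAAgattccctgga
Pparg, chr6:115421840-115421869, plus strand, 215 bases before the start: tgtaccaagtcTTGCCAAAgcagcagacag
Pparg, chr6:115422036-115422065, plus strand, 16 bases before the start: ttaaccaaccaatcTTTTGCAAgacataga
The last match reads TTGCNNAA on the opposite strand. The nuclear receptor half-site AGGTCA was in 2 of the 11 windows, both of Pparg, against 14.0% of all windows, and TATAAA was in 1, also of Pparg, against 12.4%. The direct repeat of AGGTCA with 1 base between the copies, to which PPARγ binds with its partner RXR, was in 0 of the 11 windows and in 0.0335% of all windows. The E-box CACGTG, the palindromic motif of the glucocorticoid receptor and the gamma-activated site TTCNNNGAA were in 0 of the 11, against 6.02%, 0.00913% and 7.02% of all windows. A match is only a run of letters in this window, and binding was not measured.

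The tumors had between 15759300 and 17559680 counts on genes, so a gene with 0 counts in a tumor could still lie at up to 0.169 to 0.187 CPM (counts per 1000000, with library sizes adjusted by TMM factors), the level of 3 counts, counting error only. Over all 15114 genes tested with edgeR's quasi-likelihood test, an adjusted p under 0.05 was reached by 12 genes that were higher with IFN-γ (0.0794%) and 5 that were lower. One library stood apart. IFN-γ tumor 3 had a sum of 75.5 CPM over 10 genes of skin epithelium, against 3.78 to 14.5 CPM in the other tumors, and without it 381 genes were called higher.

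Of the 10 fat cell genes, 7 were higher in each IFN-γ tumor than in any control tumor: Adipoq, Lep, Retn, Cfd, Plin1, Plin4 and Cidec. Such a separation was found for 7.62% of all genes tested. Fabp4, Lpl and Pparg overlapped between the groups. The mean was higher in the IFN-γ group for all 10 genes, with a median log2 fold change of 2.07, against 0.0015 over all genes tested. Since the genes were selected with these values known, nothing is read from the counts. In whole tumor tissue, more cells of a type and more RNA per cell cannot be told apart.

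**Figure D1:**
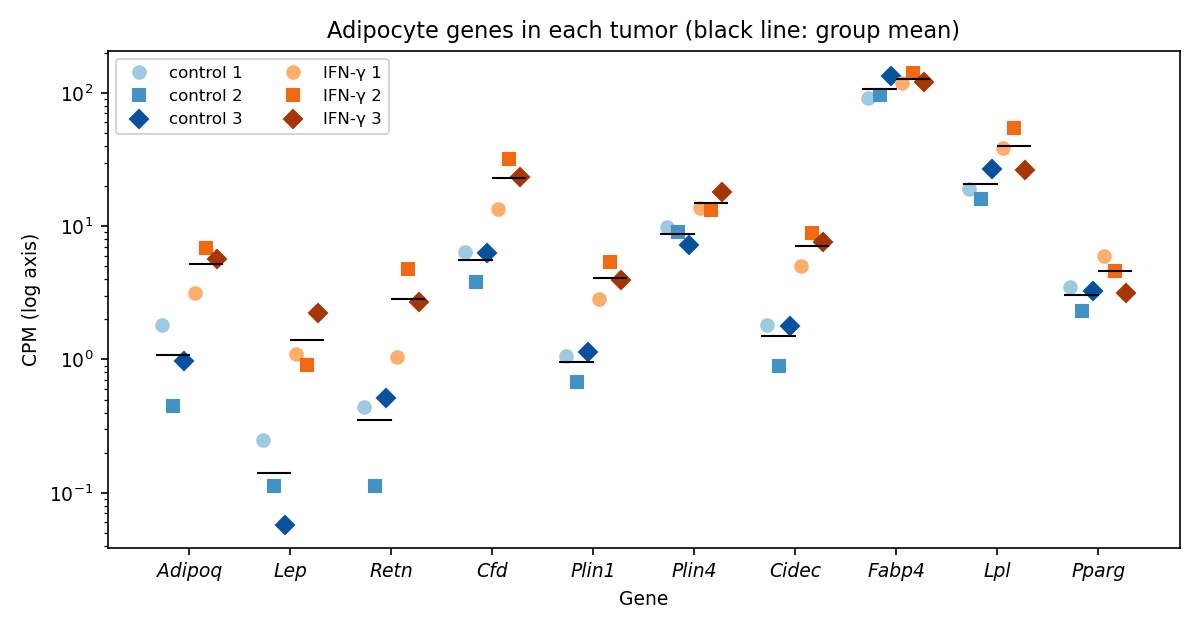
Level in CPM, on a log axis, of each of the 10 fat cell genes, with 1 point for each of the 3 control tumors (blue) and 3 IFN-γ tumors (orange) and a black line at each group mean. The points of the groups are apart for Adipoq, Lep, Retn, Cfd, Plin1, Plin4 and Cidec and overlap for Fabp4, Lpl and Pparg.

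Adipoq (ENSMUSG00000022878, chromosome 16, 23146536 to 23158028, plus strand of GRCm38) encodes adiponectin, a hormone that fat cells release into the blood. Control tumors 1, 2 and 3 had 1.81, 0.450 and 0.970 CPM, and IFN-γ tumors 1, 2 and 3 had 3.13, 6.83 and 5.68 CPM. The group means were 1.08 ± 0.686 and 5.21 ± 1.89 CPM (SD, n = 3 each), a log2 fold change of 2.28 with a standard error of 0.48. Every IFN-γ tumor was above every control, with the lowest IFN-γ value in tumor 1 and the highest control value in tumor 1.

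Lep (ENSMUSG00000059201, chromosome 6, 29060220 to 29073877, plus strand) encodes leptin, which signals the size of the fat stores to the brain. It had 4, 2 and 1 reads in the control tumors and 19, 15 and 36 reads in the IFN-γ tumors, which is 0.250, 0.113 and 0.0571 CPM against 1.10, 0.915 and 2.22 CPM. The groups did not overlap, but controls 2 and 3 held no more reads than the floor of 3. The 70 pooled reads against 7 gave a ratio of 10.3 after scaling (95% interval 4.74 to 26.5, counting error only), and Lep had the widest interval of the 10 genes. Its highest value was in IFN-γ tumor 3.

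Retn (ENSMUSG00000012705, chromosome 8, 3655770 to 3660110, plus strand) encodes resistin, a hormone made mainly by fat cells in the mouse. It had 7, 2 and 9 reads in the controls and 18, 78 and 44 reads in the IFN-γ tumors, or 0.437, 0.113 and 0.514 CPM against 1.04, 4.76 and 2.72 CPM. All IFN-γ values lay above the control values, and they spread from 1.04 to 4.76 CPM among themselves. The pooled ratio was 8.01 (95% interval 4.88 to 13.9, counting error only), with 2 of the reads in control tumor 2.

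Cfd (ENSMUSG00000061780, chromosome 10, 79890853 to 79892655, plus strand) encodes complement factor D, also named adipsin, a serine protease of the alternative complement pathway that mouse fat cells secrete in large amounts. The controls had 6.43, 3.83 and 6.33 CPM and the IFN-γ tumors 13.4, 32.0 and 23.4 CPM. The means were 5.53 ± 1.48 and 22.9 ± 9.33 CPM (SD, n = 3 each), a 4.15-fold difference with a log2 fold change of 2.05 (standard error 0.33). Cfd had 1135 reads in the IFN-γ tumors, the most of the 7 genes whose groups were apart, and 282 in the controls, where Plin4 had more (445).

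Among the genes for coat proteins of the lipid droplet, Plin1 (ENSMUSG00000030546, chromosome 7, 79720218 to 79732903, minus strand) encodes perilipin 1, which controls the access of lipases to the stored fat. Its values were 1.06, 0.676 and 1.14 CPM in the controls and 2.84, 5.43 and 3.95 CPM in the IFN-γ tumors. With means of 0.959 ± 0.249 and 4.07 ± 1.30 CPM (SD, n = 3 each), the log2 fold change was 2.08 (standard error 0.34). The lowest IFN-γ tumor was above the highest control.

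Cidec (ENSMUSG00000030278, chromosome 6, 113424634 to 113435760, minus strand) encodes a droplet protein that helps small droplets to merge into a large one. It had 1.81, 0.901 and 1.77 CPM in the controls and 4.99, 8.85 and 7.60 CPM in the IFN-γ tumors, with means of 1.49 ± 0.514 and 7.14 ± 1.97 CPM (SD, n = 3 each). The log2 fold change was 2.26 (standard error 0.33), or 4.78-fold. As for Plin1, IFN-γ tumor 2 was highest and control tumor 2 lowest.

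Plin4 (ENSMUSG00000002831, chromosome 17, 56100591 to 56109803, minus strand) encodes perilipin 4, a droplet protein found mainly in white fat and also in muscle. The controls had 9.86, 9.01 and 7.25 CPM and the IFN-γ tumors 13.6, 13.3 and 18 CPM. The means were 8.71 ± 1.33 and 15.0 ± 2.66 CPM (SD, n = 3 each), a 1.72-fold difference. The groups were apart by a smaller factor than for Plin1 or Cidec, and the highest value was in IFN-γ tumor 3. An exon of Plin4 overlaps an exon of Hdgfl2 on the opposite strand in the GENCODE M21 annotation, and without knowing whether reads were counted by strand, reads of these genes cannot be told apart.

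Of the genes for the handling of fatty acids, Fabp4 (ENSMUSG00000062515, chromosome 3, 10204088 to 10208576, minus strand) encodes a carrier of fatty acids inside fat cells that capillary endothelium and macrophages make too. It had by far the most reads of the 10 genes, with 90.9, 96.9 and 134 CPM in the controls and 118, 140 and 120 CPM in the IFN-γ tumors. The groups overlapped, since control tumor 3 was above IFN-γ tumors 1 and 3. The means were 107 ± 23.3 and 126 ± 12.6 CPM (SD, n = 3 each), a log2 fold change of 0.23 (standard error 0.15).

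Lpl (ENSMUSG00000015568, chromosome 8, 68880491 to 68907448, plus strand) encodes lipoprotein lipase, which fat cells, muscle and macrophages make. It had 19.1, 16 and 26.9 CPM in the controls and 38.8, 54.1 and 26.5 CPM in the IFN-γ tumors. IFN-γ tumors 1 and 2 were above every control, and IFN-γ tumor 3 was at the level of control tumor 3. The log2 fold change was 0.94 (standard error 0.27), with leave-out values from 0.66 to 1.17 when each tumor in turn was left out.

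Pparg (ENSMUSG00000000440, chromosome 6, 115360951 to 115490399, plus strand) encodes PPARγ, the transcription factor that fat cells need to form and that macrophages also use. The controls had 3.50, 2.31 and 3.25 CPM and the IFN-γ tumors 5.97, 4.64 and 3.15 CPM. IFN-γ tumor 3 lay below control tumors 1 and 3. The means were 3.02 ± 0.628 and 4.59 ± 1.41 CPM (SD, n = 3 each), with a log2 fold change of 0.61 (standard error 0.29) and leave-out values from 0.37 to 0.81.

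**Figure D2:**
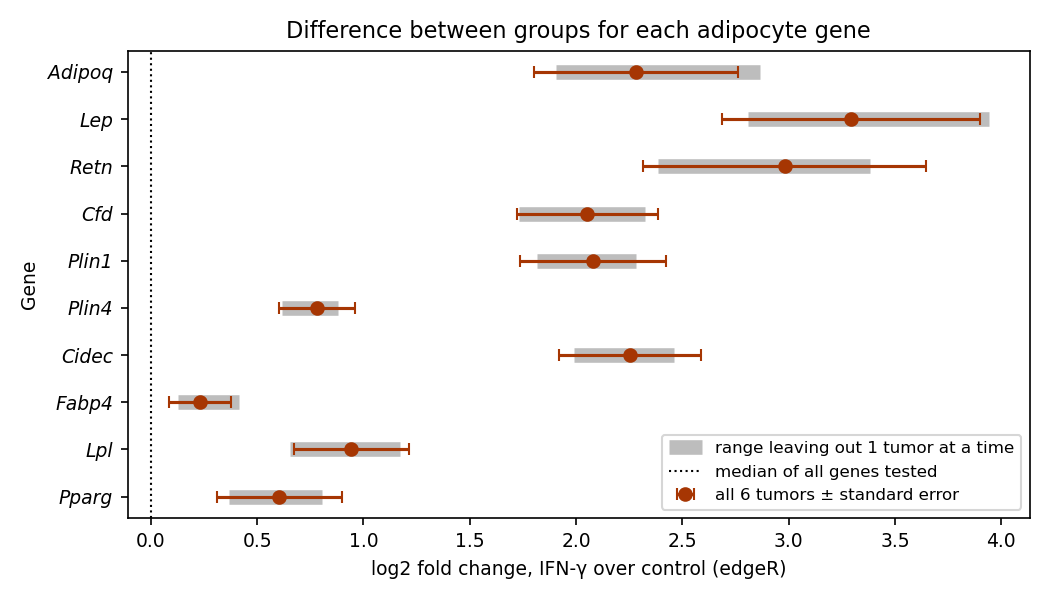
Log2 fold change of the IFN-γ group over the control group for each of the 10 fat cell genes from edgeR (points, all 6 tumors, with bars of 1 standard error), the range of the values with each tumor left out in turn (grey) and the median of all genes tested (dotted line). Adipoq, Lep, Retn, Cfd, Plin1 and Cidec lie at 2.05 or more, and Plin4, Lpl, Pparg and Fabp4 at 0.94 or less.

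The 10 genes fell into a steep and a shallow range. The log2 fold changes of Adipoq, Lep, Retn, Cfd, Plin1 and Cidec lay from 2.05 to 3.30, and those of Plin4, Lpl, Pparg and Fabp4 from 0.23 to 0.94. No gene lay between 0.94 and 2.05. The just-named 6 genes kept their order above the other 4 without any single tumor. Their lowest leave-out value was 1.73, for Cfd, and the highest leave-out value of the other 4 was 1.17, for Lpl. The split was made after the values were seen and the leave-out fits share tumors, so this is a description only.

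With edgeR, 0 of the 10 genes passed an adjusted p of 0.05 (0.112% of all genes did so in either direction). An unadjusted p under 0.05 was reached by 8, all higher, against 5.74% of all genes in that direction. DESeq2 called 7 of them (0.822% of all genes were called higher), all but Lep, Fabp4 and Pparg, and gave Lep no adjusted p. The edgeR fit without a filter on low counts called 8 (0.558% of all genes were called higher), all but Fabp4 and Pparg. Limma-voom called 0. Without IFN-γ tumor 3, edgeR called 5, Lep, Cfd, Plin1, Cidec and Lpl, where 2.46% of all genes were called higher. These counts describe genes that were selected on the same contrast.

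The order of the tumors was much the same for the 5 genes Adipoq, Retn, Cfd, Plin1 and Cidec. Each was highest in IFN-γ tumor 2, then in IFN-γ tumor 3 and then in IFN-γ tumor 1, and lowest in control tumor 2. Lpl and Fabp4 were also highest in IFN-γ tumor 2, but Fabp4 was lowest in control tumor 1. Lep and Plin4 were highest in IFN-γ tumor 3 and lowest in control tumor 3, and Pparg was highest in IFN-γ tumor 1. Leaving out a tumor cannot make separated groups overlap, so for the 7 genes it is no check of the separation. Fabp4 and Lpl were also apart without control tumor 3, and Lpl and Pparg without IFN-γ tumor 3. The share of all genes apart with a tumor left out was not counted, so nothing is read from this.

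Read ratios within a tumor do not depend on library size. Per read of Plin1, Cfd had 5.55 to 6.06 reads in the controls and 4.71 to 5.92 in the IFN-γ tumors, and Cidec had 1.33 to 1.71 and 1.63 to 1.92. These ranges overlapped. Adipoq per Plin1 was at 0.667 to 1.71 in the controls and 1.10 to 1.44 in the IFN-γ tumors. For Adipoq, unlike Cfd and Cidec, the control range took in the whole IFN-γ range.

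The ratios of 4 other genes to Plin1 differed more. Fabp4 had 85.6 to 143 reads per read of Plin1 in the controls and 25.9 to 41.4 in the IFN-γ tumors. Lpl went from 18 to 23.8 in the controls to 6.70 to 13.7, Pparg from 2.85 to 3.42 to 0.797 to 2.10, and Plin4 from 6.35 to 13.3 to 2.45 to 4.78. The ranges of these 4 ratios did not overlap between the groups. Plin1 had a larger fold change than these 4 genes, and all were selected with their values known. The 4 ratios therefore restate those fold changes and are no separate result. The ratio of Retn to Plin1 overlapped between the groups (0.167 to 0.450 and 0.367 to 0.876), as did that of Lep (0.050 to 0.235 and 0.169 to 0.562).

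Per kilobase of exon, which allows levels of different genes to be compared, Fabp4 led both groups, with a mean of 23.9 CPM per kb in the controls and 28.0 in the IFN-γ tumors. Cfd came next, with 6.0 and 24.9 CPM per kb. In the IFN-γ tumors, Cfd lay between 14.5 and 34.7 CPM per kb and Fabp4 between 26.2 and 31.3, so that their levels overlapped, while in the controls Cfd (4.15 to 6.98) lay below Fabp4 (20.3 to 29.8) in every tumor. Lpl (1.98), Plin4 (1.51) and Pparg (1.02) followed in the controls in mean CPM per kb, then Cidec (0.805), Adipoq (0.780) and Retn (0.224). Of these neighbors, Plin4 and Pparg did not overlap, nor did Adipoq and Retn, and the others overlapped. In the IFN-γ tumors the means of Cidec (3.85), Lpl (3.80) and Adipoq (3.78) stood next to each other, ahead of Plin4 (2.59), Retn (1.80) and Pparg (1.55), with overlapping ranges again. Plin1 (0.206 and 0.876) and Lep (0.0417 and 0.421) were lowest in the IFN-γ group, and Lep was lowest in both. The exon length is that of all annotated transcripts together and understates genes with long rare transcripts.

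All 10 genes had reads in every tumor, controls included, with a single read of Lep in control tumor 3. These are the genes that define the group, so their presence is no separate check of the fat cell label, and Fabp4, Lpl and Pparg are also made by other cells. Lep and Adipoq, which other cells of a tumor hardly make, were at 0.0571 to 1.81 CPM in the controls.

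The other cell types that such a tumor can hold were measured with marker lists. Summed over the 7 genes other than Fabp4, Lpl and Pparg, a split made after their values were seen, the fat cell genes reached 21.7, 15.1 and 18 CPM in the controls and 40.1, 72.1 and 63.6 CPM in the IFN-γ tumors. The sum of the 10 macrophage genes was 3650, 4080 and 4340 CPM in the controls and 5500, 6650 and 4040 CPM in the IFN-γ tumors, led by Lyz2, C1qa and C1qc. The macrophage sum was high in IFN-γ tumors 1 and 2 and within the control range in IFN-γ tumor 3, but Lyz2 made up 47.6% of it. At an unadjusted p under 0.05 (edgeR), 7 of the 10 macrophage genes were higher and 1 was lower. The groups were apart for 4 that were higher and 1 that was lower. Of the 15114 genes tested, 7.62% were apart and higher, and 1134 genes were apart and lower. The 10 endothelial genes summed to 309 to 383 CPM in the controls and 247 to 331 CPM in the IFN-γ tumors, led by Pecam1, Cdh5 and Kdr. Of these genes, 4 were lower and 0 higher at an unadjusted p under 0.05 (edgeR). Among all genes tested, 5.74% were higher and 4.44% lower at this threshold.

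**Figure D3:**
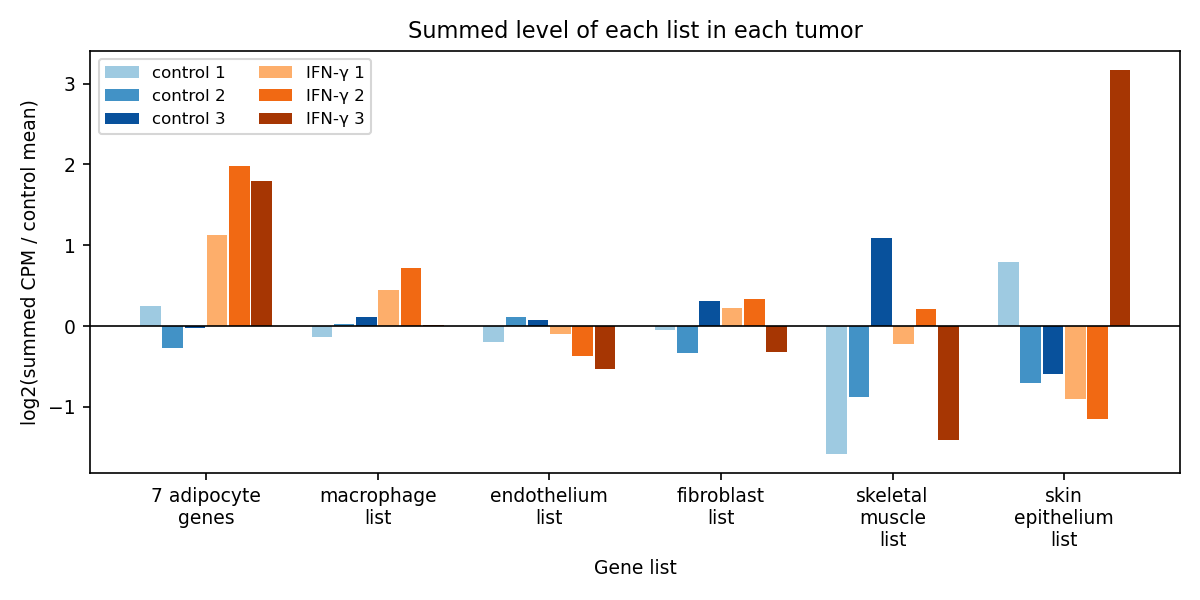
Summed CPM of 6 gene lists in each tumor, as the log2 ratio to the mean of the control tumors, with blue bars for the 3 control tumors and orange bars for the 3 IFN-γ tumors. For the 7 fat cell genes other than Fabp4, Lpl and Pparg, the IFN-γ bars stand at 1.13, 1.98 and 1.80, and the tallest bar is that of the skin epithelium list in IFN-γ tumor 3.

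Skeletal muscle, which lies under the skin together with fat, was at 170, 277 and 1080 CPM in the controls and 437, 588 and 191 CPM in the IFN-γ tumors over 11 genes led by Acta1, Myh4 and Atp2a1. The muscle sum was highest in control tumor 3 and next highest in IFN-γ tumor 2, where the fat cell sum was highest. The skin epithelium sum was 14.5, 5.18 and 5.54 CPM in the controls and 4.52, 3.78 and 75.5 CPM in the IFN-γ tumors. It was lowest in IFN-γ tumor 2, with the highest fat cell sum, and highest in IFN-γ tumor 3, with the next highest fat cell sum. Krt5, a keratin that defines basal skin cells, was at 0 counts in control tumor 3 and in IFN-γ tumors 1 and 2, while Krt14 reached 33.2 CPM in IFN-γ tumor 3.

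The 8 fibroblast genes summed to 3380 to 5290 CPM in the controls and 3410 to 5340 CPM in the IFN-γ tumors, led by Col1a2, Col3a1 and Col1a1. The sebaceous gland list, 98.8 to 103 CPM against 103 to 105 CPM, consisted almost wholly of Soat1, which many cells express, with Scd3 and Awat2 near 1 CPM or less. The nerve and Schwann cell list, led by Prx, Mbp and Mag, was at 48.8 to 63.1 CPM and 47.6 to 53.0 CPM. The epithelial genes of the carcinoma, led by Krt18, Krt8 and Cdh1, were at 15.2 to 24.2 CPM and 11.4 to 18.2 CPM. At an unadjusted p under 0.05 (edgeR), 1 fibroblast gene and 1 nerve and Schwann cell gene were higher. In the muscle, skin, sebaceous gland and carcinoma lists, 0 genes passed. All 11 muscle genes were tested, but only 2 of 10 skin, 3 of 8 sebaceous gland and 4 of 6 carcinoma genes. The other genes of these lists fell below the filter on low counts and could not pass. The part of these cells in the levels of the fat cell genes was not tested.

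The other genes of fat cell biology were taken from 9 lists with 99 distinct genes, of which 81 were tested. At an adjusted p under 0.05, edgeR called 0 of the 81. At an unadjusted p under 0.05, 21 had a higher and 3 a lower level with IFN-γ, where 5.74% of all genes tested were higher and 4.44% lower. The median log2 fold change of the 81 genes was 0.10, against 0.0015 over all genes tested. Limma-voom called 0. DESeq2 called 9 higher and 2 lower, edgeR without a filter 10 and 2, and edgeR without IFN-γ tumor 3 called 11 and 2. Over all genes, these last 3 fits called 0.822%, 0.558% and 2.46% higher, and 73, 70 and 112 genes lower. The gene values that follow come from the edgeR fit that called 0, so their adjusted p-values miss the threshold.

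**Figure D4:**
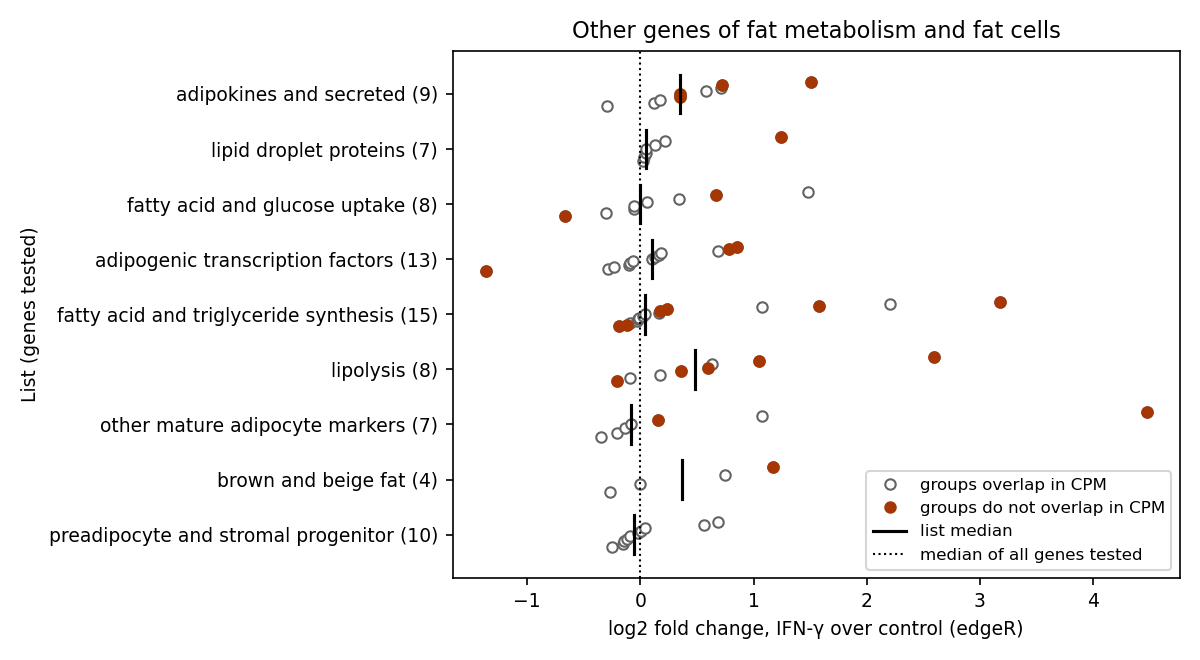
Log2 fold change of the IFN-γ group over the control group from edgeR for each tested gene in the 9 lists of fat cell biology, 1 row a list with the number of genes tested in brackets. Filled points are genes whose groups do not overlap in CPM, black bars are list medians, and the dotted line is the median of all genes tested, with Cyp2e1, Thrsp, Adrb3 and Pck1 above 2.

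Among other secreted factors, 6 of 9 tested genes had a higher level at an unadjusted p under 0.05 and 0 a lower one. Rbp4, the carrier of retinol in blood, had 1.06, 0.507 and 0.742 CPM in the controls and 1.57, 3.36 and 1.67 CPM in the IFN-γ tumors. This was a 2.85-fold difference (log2 fold change 1.51 with a standard error of 0.43, adjusted p = 0.31, edgeR). Nampt, an enzyme of NAD synthesis, was at 134 to 156 CPM and 159 to 206 CPM (log2 fold change 0.35, adjusted p = 0.35, edgeR), and Rarres2, the chemoattractant chemerin, at 84.1 to 125 CPM and 107 to 215 CPM. Apln overlapped between the groups, with 54.3 to 80.7 CPM and 42.8 to 66.0 CPM.

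Of the other droplet proteins, 1 of 7 tested genes, G0s2, an inhibitor of the lipase ATGL, was higher at an unadjusted p under 0.05 (log2 fold change 1.25, adjusted p = 0.35, edgeR). It had 0.562, 0.676 and 0.457 CPM in the controls and 0.870, 1.59 and 1.61 CPM in the IFN-γ tumors. Plin2, the perilipin of most cell types, overlapped at 90.9 to 113 CPM and 96.1 to 115 CPM, and so did Plin3, at 68.7 to 78.4 CPM and 70.3 to 77.8 CPM. Abhd5, the activator of ATGL, was at 30.5 to 33.2 CPM and 30.8 to 34.8 CPM. Fitm2 and Bscl2, which act in the formation of droplets, overlapped as well.

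For the uptake of fatty acids and glucose, 1 of 8 tested genes was higher and 1 lower at an unadjusted p under 0.05. Acsl1, which activates fatty acids by joining them to coenzyme A, had 19.9, 25.7 and 23.9 CPM in the controls and 35.5, 44.5 and 30.7 CPM in the IFN-γ tumors (log2 fold change 0.67, adjusted p = 0.23, edgeR). Slc27a1, a fatty acid transport protein, had 93.3, 86.5 and 62.2 CPM in the controls and 50.5, 46.7 and 55.1 CPM in the IFN-γ tumors (log2 fold change -0.67, adjusted p = 0.22, edgeR). Cd36, the fatty acid receptor of fat cells, macrophages and endothelium, was at 30.6 to 47.0 CPM and 36.5 to 55.2 CPM, and Slc27a4 at 38.7 to 45.8 CPM and 40.4 to 51.9 CPM. Gpihbp1, which holds lipoprotein lipase on the capillary wall, was at 16 to 19.8 CPM and 13.4 to 16.7 CPM. The ranges of these last 3 genes overlapped.

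Of 13 tested transcription factors of fat cell formation, 2 were higher and 1 lower at an unadjusted p under 0.05. Cebpd had 27.2, 21.4 and 27.0 CPM in the controls and 41.4, 43.6 and 51.5 CPM in the IFN-γ tumors (log2 fold change 0.85 with a standard error of 0.13, adjusted p = 0.074, edgeR). Cebpa, the partner of PPARγ in mature fat cells, had 14.2, 13.3 and 13.6 CPM and 26.0, 27.2 and 17.5 CPM (log2 fold change 0.78, adjusted p = 0.22, edgeR). For Cebpa, as for Pparg, IFN-γ tumor 3 was the lowest of the IFN-γ tumors. Mlxipl, the carbohydrate-responsive factor ChREBP, had 3.68, 6.76 and 8.39 CPM in the controls and 3.19, 2.68 and 1.42 CPM in the IFN-γ tumors (log2 fold change -1.37, adjusted p = 0.30, edgeR). Srebf1 (138 to 176 CPM and 145 to 166 CPM), Klf4 (137 to 156 CPM and 125 to 160 CPM) and Rxra, the partner of PPARγ on DNA (76.3 to 79.6 CPM and 79.1 to 89.1 CPM), overlapped.

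In the synthesis of fatty acids and triglyceride, 3 of 15 tested genes were higher and 1 lower at an unadjusted p under 0.05. Thrsp, a lipogenic factor of fat and liver, had 0.499, 0.282 and 1.03 CPM in the controls and 1.45, 7.75 and 7.35 CPM in the IFN-γ tumors (log2 fold change 3.17 with a standard error of 0.69, adjusted p = 0.22, edgeR). Dgat2, which makes triglyceride, had 1.25, 1.86 and 2.51 CPM and 3.36, 6.65 and 6.92 CPM (log2 fold change 1.58, adjusted p = 0.23, edgeR). Pck1, which makes the precursor of glycerol in fat cells, overlapped between the groups, with 0.114 to 0.749 CPM and 0.679 to 3.17 CPM.

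The enzymes of fatty acid synthesis that many growing cells use had far more reads. Fasn had 384, 447 and 383 CPM in the controls and 360, 381 and 381 CPM in the IFN-γ tumors. Acly had 336 to 354 CPM and 343 to 352 CPM, and Scd1 had 659 to 801 CPM and 710 to 830 CPM. Their group ranges overlapped for Acly and Scd1, and for Fasn each IFN-γ tumor was below each control by a small margin. With an unadjusted p of 0.22 (edgeR), Fasn was not the gene of this list counted as lower.

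In lipolysis, 4 of 8 tested genes were higher and 0 lower at an unadjusted p under 0.05. Adrb3, the adrenergic receptor of fat cells, had 0.437, 0.0563 and 0.171 CPM in the controls and 1.16, 1.95 and 0.926 CPM in the IFN-γ tumors (log2 fold change 2.60 with a standard error of 0.61, adjusted p = 0.24, edgeR). Ces1d, a carboxylesterase of fat cells and liver, had 8.12, 6.53 and 9.59 CPM and 15.2, 18.5 and 16.5 CPM (log2 fold change 1.05, adjusted p = 0.096, edgeR). Pnpla2, which encodes ATGL, had 45.2 to 53.9 CPM and 61.1 to 66.3 CPM (log2 fold change 0.36, adjusted p = 0.26, edgeR). Mgll was at 22.2 to 23.4 CPM and 19.4 to 20.9 CPM, and Pde3b at 28.9 to 34.7 CPM and 29.5 to 32.0 CPM.

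Of 7 tested other markers of mature fat cells, 2 were higher at an unadjusted p under 0.05. Cyp2e1, a cytochrome P450 of liver and fat, had 0.125, 0.0563 and 0.399 CPM in the controls and 1.68, 6.53 and 5.25 CPM in the IFN-γ tumors (log2 fold change 4.47 with a standard error of 0.71, adjusted p = 0.093, edgeR). Like Adipoq and Cidec, Cyp2e1 and Thrsp were lowest of the IFN-γ tumors in tumor 1. Car3, a carbonic anhydrase of fat and muscle, was at 18.4, 19.3 and 61.3 CPM in the controls and 55.5, 91.9 and 62.2 CPM in the IFN-γ tumors, and its high control was tumor 3, the one with the highest muscle sum. Tmem120a and Adipor2, which many tissues express, were at 63.3 to 69.9 CPM and 53.4 to 71.0 CPM, and at 144 to 153 CPM and 153 to 184 CPM.

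For brown and beige fat, 1 of 4 tested genes was higher at an unadjusted p under 0.05. This was Dio2, which activates thyroid hormone, with 9.18, 14.0 and 13.8 CPM in the controls and 25.6, 19.8 and 38.1 CPM in the IFN-γ tumors (log2 fold change 1.17, adjusted p = 0.22, edgeR). Ucp1, the uncoupling protein that defines brown fat, had 0 counts in all 6 tumors. Cox8b, Otop1 and Cox7a1 overlapped between the groups.

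Among 10 tested genes of preadipocytes and stromal progenitors, 1 was higher at an unadjusted p under 0.05 and 0 were lower. Ly6a had 184, 226 and 240 CPM in the controls and 378, 469 and 201 CPM in the IFN-γ tumors (log2 fold change 0.69, adjusted p = 0.43, edgeR). Cd34 (818 to 883 CPM and 811 to 1000 CPM), Pdgfrb (128 to 145 CPM and 99.2 to 136 CPM), Gata2 and Dpp4 overlapped.

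The 18 genes of the 9 lists that were too low for the test had more reads in the IFN-γ tumors for 11 genes, fewer for 6 and none in any tumor for 1, which was Ucp1. Klf15, a transcription factor of fat cells, had 4 reads in the controls together and 26 in the IFN-γ tumors. Adig, which encodes adipogenin, had 8 and 19. Both were named after their values were seen, and no test was made.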

How the data were processed

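RNA was extracted with Trizol. The table that the authors deposited gives raw read counts per gene in whole numbers. The submitters' processing notes name HISAT2 and mm10. The counting program, the annotation release and the strandedness are not given in the sources used here. All 6 columns were used.

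CPM used TMM factors. The groups were compared with edgeR 4.0.16 (R 4.3.3), by the quasi-likelihood test after filterByExpr, with p-values adjusted by Benjamini-Hochberg over all genes tested (threshold 0.05). The standard error is the size of the log2 fold change divided by the square root of F. DESeq2 1.42.0, limma 3.58.1 (voom), other scalings and filters, a replicate block and leaving out each tumor were the alternatives. P-values measure only the spread between these 6 tumors, which may be technical. Positions are from GENCODE M21 (GRCm38), which holds 99.5% of the identifiers.

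The members, lists and motifs were chosen with earlier results of these data known. Named genes are the members, the 3 most abundant tested genes and the 3 with the smallest p in each pathway list, the 3 most abundant genes in each marker list, and the 10 genes with the highest Pearson r over the 6 tumors between log2(CPM + 0.5) and the mean z-score of the members. The values of 1 gene that this rule names are not reported here.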

Additional observations from a re-analysis of the deposited data

How the results depend on the processing

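The counts of called genes depended on the fit. In place of 12 higher genes, library size only gave 7, DESeq2 118 and no filter on low counts 150. Leaving out each tumor gave 4 to 381, with 381 without IFN-γ tumor 3. In place of 5 lower genes, DESeq2 gave 73, limma-voom 3 and no filter 70, and leaving out each tumor gave 2 to 112. Of the 10 fat cell genes, 0 were called by edgeR, 7 by DESeq2, 8 with no filter and 0 to 5 when each tumor was left out, with 5 without IFN-γ tumor 3. Of the genes of the 9 lists, 0 were called by edgeR, 11 by DESeq2, 12 with no filter and 0 to 13 when each tumor was left out, with 13 without IFN-γ tumor 3. Apart from the tumors and genes entered, the cause was not tested. The median log2 fold change of the 10 genes stayed between 1.77 and 2.31 when each tumor was left out. None of the alternatives turned the direction of any of the 10 genes or of the other genes with a log2 fold change in the text. Replicate numbers are shared between the groups, but the deviations of same-numbered tumors correlated at -0.24, -0.0047 and -0.22, so the numbers were not taken as pairs. A fit with the replicate block gave 5 higher and 2 lower genes and called 0 of the 10. Lep and Retn rest on few reads, and depth limits their ratios.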

Other observations

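The 10 genes whose level across the 6 tumors followed the mean z-score of the fat cell genes most closely were Tspan4, Ces1d, Ppp2r3c, Particl, Hadha, 5830448L01Rik, Ulk2, Irs2, Itgb5 and Akr1a1, with Pearson r from 0.985 to 0.996. The 6 points contain the difference between the groups and share their libraries, so any gene that separates the groups evenly scores high, and no p is given. Tspan4, a tetraspanin, had the highest r, with 146, 131 and 159 CPM in the controls and 228, 268 and 238 CPM in the IFN-γ tumors. It was among the 12 genes called higher (adjusted p = 0.048, edgeR). Ces1d was the one of the 10 that belongs to a list of fat cell biology. Hadha, an enzyme of mitochondrial fatty acid oxidation, was at 125 to 129 CPM in the controls and 136 to 138 CPM in the IFN-γ tumors, a much smaller step than that of the fat cell genes. Irs2, an adapter of the insulin receptor, was at 88.6 to 94.7 CPM and 101 to 105 CPM.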
